A study of Rattus norvegicus with 43 samples.

Results

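Butyrylated starch was set against low-amylose maize starch in the distal colon of rats, as the HAMSB diet minus the LAMS diet. The comparison was made of the 16 arrays whose diet label is HAMSB (9 arrays) or LAMS (7 arrays), out of 43 arrays in the series. The remaining arrays came from the diets HAMS (8), HAW (8), LAW (6) and CON (5), and they entered the estimate of the spread between animals. Every array held 100 ng of total RNA from the distal colon of 1 Sprague Dawley rat aged 11 weeks, on an Affymetrix array. HAMSB is read here as butyrylated high-amylose maize starch, HAMS as the same starch without added butyrate and LAMS as low-amylose maize starch. These readings, and the Western-type base diet that the 3 groups are taken to share, rest on what is known of the study, because the labels give codes alone. The LAMS rats carry a starch too, so the comparison holds no starch-free or chow-fed group. Values are log2 signals, on which a difference of 1 is a 2-fold change, and each difference is followed by its standard error.

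High-amylose starch resists digestion in the small intestine and is fermented by bacteria of the large bowel to acetate, propionate and butyrate. Butyrylated starch carries butyrate as an ester, which bacteria release in the colon, so it delivers more of this acid than the starch alone. Butyrate is the main fuel of colonocytes, the absorptive cells of the colon, enters them through the transporters Slc16a1 and Slc5a8, inhibits histone deacetylases and is sensed by the receptors Ffar2, Ffar3 and Hcar2. Low-amylose starch is largely digested before it reaches the colon.

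All 16 arrays carried the marks of colonic epithelium. The keratin Krt8 lay between 12.1 and 12.6, the brush-border protein Vil1 between 9.76 and 10.4 and the chloride exchanger Slc26a3 between 10.4 and 11.2, far above the low-signal floor of 4.75. The lymphoid level, the mean of 19 B cell and germinal centre genes, averaged 6.53 ± 0.82 in HAMSB and 6.70 ± 1.14 in LAMS (SD, n = 9 and 7). These means did not differ beyond the spread (exact permutation p = 0.723, two-sided), and the level stood above 7 on 2 HAMSB and 3 LAMS arrays (LAMS replicates 2, 3 and 4). The spread of an array, the interquartile range of its values, was 3.12 ± 0.08 in HAMSB and 3.21 ± 0.09 in LAMS (exact permutation p = 0.0649). Without LAMS replicate 1 or 7 that p was 0.008 or 0.0392, with a difference of -0.11 or -0.10. The file names in the labels are written in 3 styles. A diet code in capitals came first for 5 HAMSB and 3 LAMS arrays, an animal number came first for 4 HAMSB arrays, and a lower-case code was used for 4 LAMS arrays. Only the first style holds both diets, and what the styles stand for is not given in the sources used here. Among HAMSB arrays the style coincided with the animal number, 1 to 30 for capitals first and 31 to 59 for number first. Style and animal number cannot be told apart there.

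More genes fell than rose under HAMSB. Of 10934 genes tested with limma, 741 differed from LAMS at an adjusted p under 0.05 (6.78% of the genes tested). Of these, 239 were higher in HAMSB (2.19%) and 502 were lower (4.59%), while 2856 genes had an unadjusted p under 0.05. With each array centred on its own median, the split was 74 higher and 459 lower. Most shifts were small: the median size among the changed genes was 0.45, the 95% limits of a difference lay at a median of 0.24 to either side over all genes, and 5 genes moved by more than 1. Complete separation of the arrays was rarer than a call. In 10 genes all 9 HAMSB arrays lay above every LAMS array (0.0915% of genes), and in 49 all lay below (0.448%).

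The number of calls depended on which arrays were in the fit. Leaving out LAMS replicates 2, 3, 4 and 6, the lower-case arrays, left 158, 216, 197 and 293 genes, while leaving out LAMS replicates 1, 5 and 7 gave 1384, 975 and 1030. Without HAMSB replicates 1 to 5 the count was 368, 292, 424, 456 and 202, and without HAMSB replicates 6 to 9 it was 772, 766, 956 and 1272. With file-name style as a block 327 genes passed, 150 higher and 177 lower, and 199 of them were among the 741. The direction of all 741 genes was kept with that block, at a median of 0.764 of the size. Within the shared style alone, 5 HAMSB against 3 LAMS arrays, 38 genes passed and 739 of the 741 kept their direction. The part of name style in the result was not tested.

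**Figure D1:**
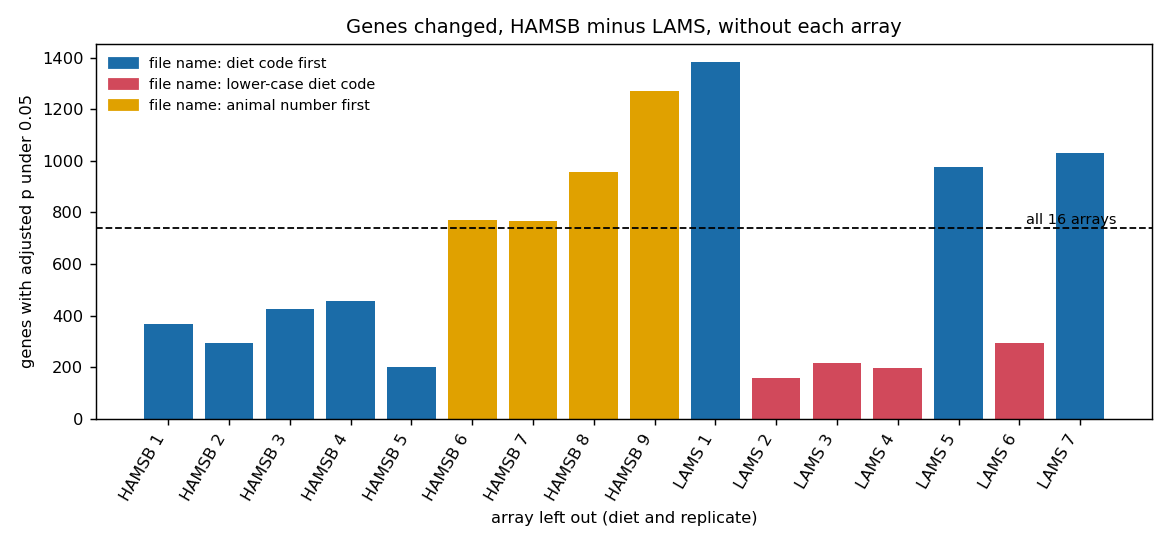
Number of genes with an adjusted p under 0.05 in HAMSB minus LAMS (vertical axis) after leaving out the array named on the horizontal axis, with bars coloured by file-name style and a dashed line at the 741 genes of all arrays. Leaving out any lower-case LAMS array gave 158 to 293 genes, and leaving out any LAMS array of the other style gave 975 to 1384.

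**Figure D2:**
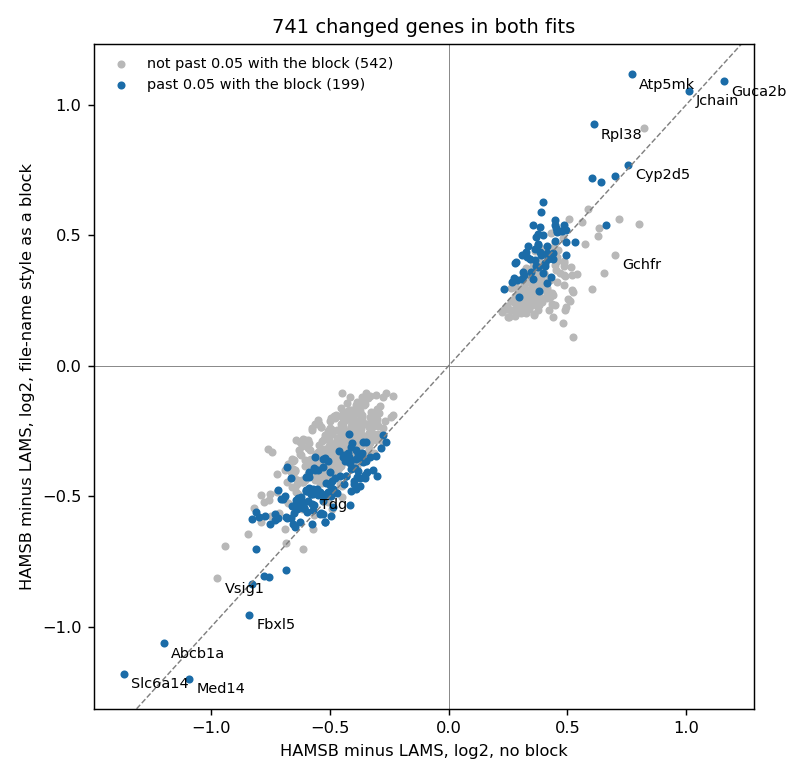
Difference HAMSB minus LAMS (log2) of each of the 741 changed genes without a block (horizontal axis) and with file-name style as a block (vertical axis), 1 point per gene, with a dashed line of equality. All points keep their sign, and 199 pass an adjusted p of 0.05 with the block.

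Among the changed genes the largest rise was that of Guca2b, which encodes uroguanylin, a peptide that opens chloride and bicarbonate secretion through the receptor guanylyl cyclase C. On the 9 HAMSB arrays its signal ran from 8.76 through a median of 9.19 to 9.72, against 7.62, 7.83 and 9.05 on the 7 LAMS arrays. Of the HAMSB arrays 6 lay above every LAMS array, and the groups overlapped through LAMS replicate 5 alone. The difference was 1.16 ± 0.21 (limma, adjusted p = 0.00474). It stayed past the threshold without any single array (highest adjusted p = 0.0161) and with name style as a block (1.09, adjusted p = 0.00860). Within the shared style it was 0.96 (adjusted p = 0.152). HAMS arrays ran from 7.44 through 8.30 to 8.95, so HAMSB exceeded HAMS by 0.99 ± 0.20 (adjusted p = 0.00188). After removal of diet means, the genes whose signal followed Guca2b most closely over 43 arrays were Or5af1 (r = 0.65), Rhox9, Tmem86a, Chrne and Acod1.

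The promoter of Guca2b is shown because this gene carried the largest rise that passed. It covers 300 bases around the gene's start in the RefSeq GRCr8 table, at chr5:138534161-138534460 on the minus strand. Capitals mark a match to GTTAAT, part of the site of the HNF1 factors of intestinal epithelium, searched on both strands (reverse complement ATTAAC). Of 33469 rat promoters in the table, 7.45% hold these letters, and the match is a description of the sequence.
Guca2b: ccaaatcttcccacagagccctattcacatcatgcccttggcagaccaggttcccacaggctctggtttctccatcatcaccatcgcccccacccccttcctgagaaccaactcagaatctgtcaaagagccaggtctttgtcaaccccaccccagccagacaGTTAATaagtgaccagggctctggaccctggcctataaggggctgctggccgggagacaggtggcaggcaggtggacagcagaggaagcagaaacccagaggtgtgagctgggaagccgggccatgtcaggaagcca

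Other genes of the guanylin and fluid secretion list mostly stayed below the threshold. Of 29 tested members 2 rose (6.90%), 1 fell (3.45%) and 26 did not pass. Over all genes 2.19% rose and 4.59% fell. The list median was 0.06 against 0.006 over all genes. Nherf1, a scaffold that holds transporters at the brush border, measured 9.83, 10.3 and 10.5 (lowest, median, highest) in HAMSB and 9.82, 9.93 and 9.99 in LAMS. All HAMSB arrays but replicate 8 lay above LAMS, and the difference of 0.36 ± 0.11 (adjusted p = 0.0456) was lost in 12 of 16 runs that left out 1 array (up to 0.111, without LAMS replicate 2). Slc12a2, the cotransporter that loads chloride into secreting cells, measured 9.77, 10.1 and 10.7 in HAMSB and 10.6, 10.7 and 11.0 in LAMS. It fell by 0.63 ± 0.17 (adjusted p = 0.0238; 0.151 with the name-style block). Guca2a, which encodes guanylin, stood at a difference of 0.55 ± 0.18 without passing (adjusted p = 0.0554), and at 0.32 with the block and 0.07 within the shared style. The receptor gene Gucy2c was at -0.14, with a 95% interval of -0.48 to 0.21. The chloride channel gene Cftr was at -0.21, with an interval of -0.65 to 0.24.

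Slc6a14, a carrier of neutral and cationic amino acids, showed the largest fall that passed. Its signal was 6.68, 7.62 and 8.40 in HAMSB (lowest, median, highest) and 8.09, 8.90 and 9.58 in LAMS, with 7 HAMSB arrays below every LAMS array. The difference was -1.37 ± 0.26 (adjusted p = 0.00474). With the name-style block it was -1.18 (adjusted p = 0.00770), within the shared style -1.20 (0.0649), and the highest adjusted p without 1 array was 0.0182. HAMS arrays lay between, at 7.47, 8.22 and 8.98, and HAMSB was 0.78 lower than HAMS as well (-0.78, adjusted p = 0.0269). The genes most alike to Slc6a14 after removal of diet means were Kbtbd3 (r = 0.81), Rngtt, Yme1l1, Trip4 and Selenot. Yme1l1, a protease of the inner mitochondrial membrane, itself fell by 0.77 ± 0.16 (adjusted p = 0.00705; 0.00860 with the block). Among 20 amino acid and peptide transport genes Slc6a14 and Slc38a2 fell (10%, against 4.59% over all genes), none rose, and the median was -0.05. Slc38a2, which takes up glutamine and other neutral amino acids, fell by 0.42 ± 0.13 (adjusted p = 0.0469; 0.235 with the block, and lost in 10 of 16 runs, up to 0.140 without LAMS replicate 4).

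The RNA signals for both regulated steps of polyamine synthesis were lower, while enzyme levels were not measured. Polyamines are small cations needed for growth of the crypt epithelium. Odc1, ornithine decarboxylase, measured 8.36, 8.83 and 9.33 in HAMSB and 9.13, 9.30 and 9.85 in LAMS, a fall of 0.54 ± 0.14 (adjusted p = 0.0174). The call stood with the block (-0.56, adjusted p = 0.0271) and was lost in 2 of 16 runs (up to 0.0537, without LAMS replicate 3). Amd1, S-adenosylmethionine decarboxylase, measured 7.21, 7.89 and 8.24 in HAMSB and 8.06, 8.50 and 8.68 in LAMS. It fell by 0.68 ± 0.17 (adjusted p = 0.0169), at 0.0675 with the block and 0.0513 without HAMSB replicate 5. For each of these genes 7 of 9 HAMSB arrays lay below every LAMS array. Against HAMS neither passed, with Odc1 at -0.18 (limma, adjusted p = 0.321) and Amd1 at 0.12 (0.642). With the block Odc1 lay below HAMS (-0.35, adjusted p = 0.0434) and Amd1 did not pass (-0.04, 0.855). The falls against LAMS are counted next. These falls are 15.4% of the 13 polyamine genes, against 4.59% over all genes. The other 11 polyamine genes did not pass, and the list median was 0.02.

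**Figure D3:**
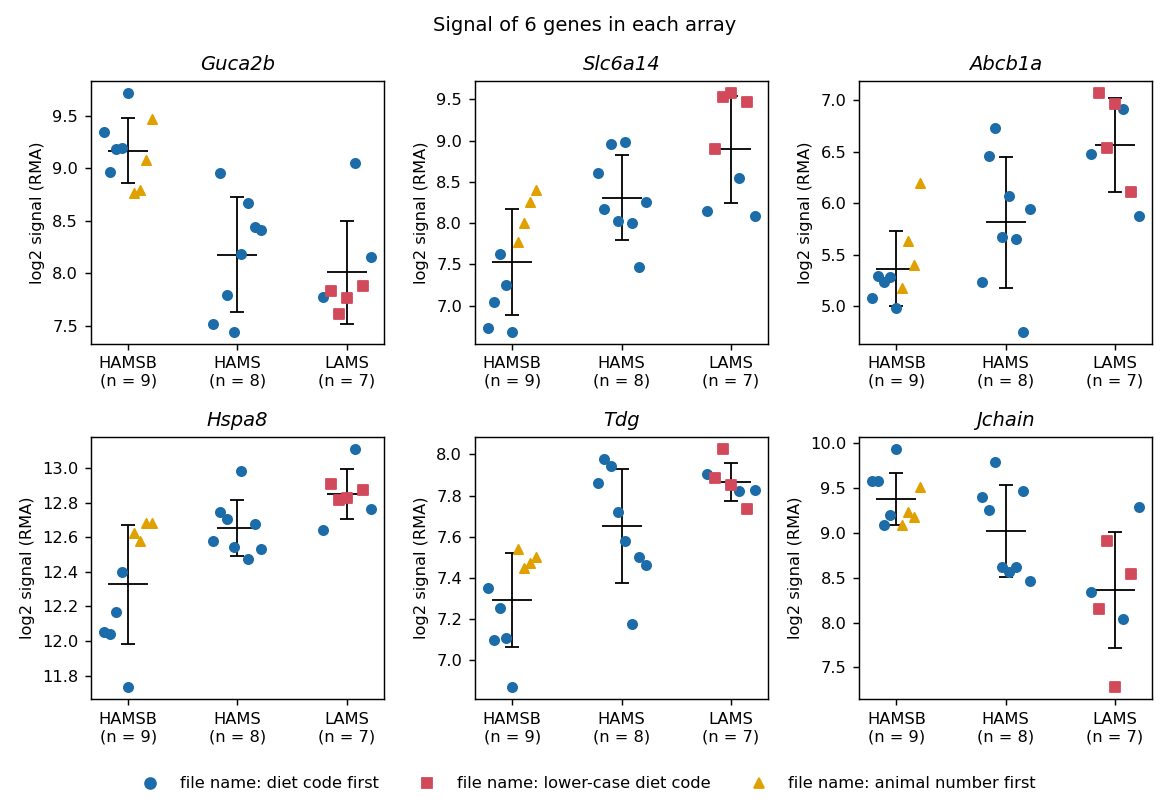
Log2 signal (vertical axis) of 6 genes on every HAMSB, HAMS and LAMS array, 1 symbol per array shaped by file-name style, with bars for the mean and SD. Guca2b and Jchain lie higher in HAMSB than in LAMS, and Slc6a14, Abcb1a, Hspa8 and Tdg lie lower, with no overlap between HAMSB and LAMS for Tdg.

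Among 30 genes of drug metabolism and efflux, 3 rose (10%), 1 fell (3.33%) and the median was -0.06. Over all genes the shares were 2.19% and 4.59%. Abcb1a, the efflux pump P-glycoprotein, measured 4.99, 5.28 and 6.19 in HAMSB and 5.87, 6.54 and 7.07 in LAMS. All HAMSB arrays but replicate 9 lay below every LAMS array, and the gene fell by 1.20 ± 0.25 (adjusted p = 0.00787). With the block the difference was -1.06 (adjusted p = 0.0251), and no left-out array ended the call (up to 0.0293). HAMS spanned 4.75 to 6.73, and HAMSB did not differ from it past the threshold (-0.45, adjusted p = 0.171). The rises were cytochromes P450. Cyp2d5 measured 5.88, 6.26 and 6.56 in HAMSB and 4.77, 5.63 and 5.86 in LAMS, without overlap. It rose by 0.75 ± 0.15 (adjusted p = 0.00787; 0.0157 with the block) and was also 0.83 above HAMS (adjusted p = 0.00123). Its relative Cyp2d4 rose by 0.50 ± 0.13 (adjusted p = 0.0203; 0.0483 with the block), with 8 of 9 HAMSB arrays above LAMS. Cyp2d4 was lost in 4 runs (up to 0.0652, without LAMS replicate 2). Cyp2d genes are close copies of each other, so their probe sets may share signal. Cyp4b1, a fatty acid and xenobiotic hydroxylase, rose by 0.82 ± 0.26 (adjusted p = 0.0459), was at 0.0896 with the block, and was lost in 10 of 16 runs (up to 0.132, without LAMS replicate 4).

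Cytosolic chaperones were among the falls. Of 25 heat shock genes 5 were lower in HAMSB (20%, against 4.59% over all genes) and none was higher. The list median was -0.19. Hspa8, the constitutive Hsc70 that folds new proteins and uncoats vesicles, measured 11.7, 12.4 and 12.7 in HAMSB and 12.6, 12.8 and 13.1 in LAMS. It fell by 0.52 ± 0.10 (adjusted p = 0.00474), kept its call without each array (up to 0.0193) and passed with the block (-0.60, adjusted p = 0.000968). Hspa8 also passed within the shared style (-0.76, adjusted p = 0.0299), and its 7 further probe sets above the floor differed by -0.70 to -0.51. The 5 HAMSB arrays of that style ran from 11.73 to 12.40. The 4 number-first HAMSB arrays, which that fit leaves out, lay nearer to LAMS, from 12.58 to 12.68. Against HAMS, whose arrays ran from 12.47 to 12.98, Hspa8 was at -0.33 (adjusted p = 0.0197).

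The other 4 fallen members of that list are known partners of Hspa8 in protein folding. Hsp90ab1, the constitutive Hsp90, fell by 0.36 ± 0.08 (adjusted p = 0.0134; 0.0529 with the block) and lay 0.33 below HAMS (-0.33, adjusted p = 0.00658). Hsph1, the Hsp110 exchange factor, fell by 0.69 ± 0.17 (adjusted p = 0.0154; 0.0672 with the block) and was at -0.62 against HAMS (adjusted p = 0.0103). Its call was lost without LAMS replicate 2 (0.0561). Dnaja2, a J-protein co-chaperone, fell by 0.37 ± 0.10 (adjusted p = 0.0212; 0.0216 with the block), with 3 runs that ended the call (up to 0.0590, without HAMSB replicate 5). Hsp90aa1, the inducible Hsp90, fell by 0.64 ± 0.18 (adjusted p = 0.0316), at 0.200 with the block and lost in 8 runs (up to 0.0944, without LAMS replicate 2). In the endoplasmic reticulum list 2 of 30 genes fell (6.67%, near the 4.59% over all genes) and none rose. These were the chaperone Hsp90b1 (-0.45 ± 0.14, adjusted p = 0.0451) and the stress kinase Eif2ak3 (-0.43 ± 0.12, adjusted p = 0.0287). Neither passed with the block (adjusted p = 0.0904 and 0.121), and they were lost in 10 and 7 of 16 runs.

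The promoters of Hspa8 and Hsph1 are shown because they belong to the heat shock genes that fell and hold the factor's motif. Both are RefSeq GRCr8 windows of 300 bases around the start, at chr8:50080264-50080563 and chr12:10427118-10427417, each on the plus strand. Capitals mark matches to 3 alternating GAA units, GAANNTTCNNGAA, on either strand (reverse complement TTCNNGAANNTTC). Hspa8 holds 2 matches and Hsph1 holds 1. Of 33469 promoters 0.798% hold the motif, as do 6 of the 20 tested heat shock genes with an entry and 2 of the 3 fallen ones with an entry.
Hspa8: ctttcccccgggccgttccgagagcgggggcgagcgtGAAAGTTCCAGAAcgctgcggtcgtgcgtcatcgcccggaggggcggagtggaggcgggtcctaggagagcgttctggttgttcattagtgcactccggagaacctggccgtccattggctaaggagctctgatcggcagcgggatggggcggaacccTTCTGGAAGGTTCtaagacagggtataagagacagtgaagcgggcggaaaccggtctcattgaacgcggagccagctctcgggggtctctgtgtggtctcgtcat
Hsph1: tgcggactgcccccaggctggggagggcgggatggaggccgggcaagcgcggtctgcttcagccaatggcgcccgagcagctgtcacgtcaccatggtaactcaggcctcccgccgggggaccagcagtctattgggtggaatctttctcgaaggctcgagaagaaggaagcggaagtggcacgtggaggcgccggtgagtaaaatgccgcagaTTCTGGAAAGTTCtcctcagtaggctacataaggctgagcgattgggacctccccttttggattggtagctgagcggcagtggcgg

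Genes of messenger RNA processing made up the list with the highest share of falls. Of 58 splicing factors 17 fell (29.3%), none rose, and the median was -0.25. With the name-style block 5 fell and the median was -0.18. Hnrnpc, which packages nascent transcripts, measured 8.33, 8.81 and 9.43 in HAMSB and 9.18, 9.27 and 9.70 in LAMS, with 8 of 9 HAMSB arrays below LAMS. It fell by 0.49 ± 0.11 (adjusted p = 0.0101), kept its call without each array, and passed with the block (-0.57, adjusted p = 0.00860) and within the shared style (-0.72, adjusted p = 0.0444). Prpf39, a U1 snRNP factor, fell by 0.84 ± 0.22 (adjusted p = 0.0174; 0.0798 with the block). Zfp638 fell by 0.83 ± 0.20 (adjusted p = 0.0134; 0.0285 with the block). Rbm39, a coactivator of splicing, fell by 0.66 ± 0.16 (adjusted p = 0.0142; 0.0357 with the block), while another probe set of Rbm39 went the opposite way (0.41). Without a block none of these 4 differed from HAMS past the threshold (adjusted p = 0.0791 to 0.904). With the block Hnrnpc (-0.37, limma, adjusted p = 0.0121), Zfp638 (-0.45, 0.0161) and Rbm39 (-0.39, 0.0310) lay below HAMS. Prpf39 did not pass there (-0.23, 0.383).

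Zinc finger protein genes, most of them encoding DNA-binding repressors, fell in 14 and rose in 1 of 135 cases, at a median of -0.09. These shares are 10.4% and 0.741%, against 4.59% and 2.19% over all genes. With the block 4 fell and 2 rose. Zfp266 separated the diets without overlap, at 6.71, 7.25 and 7.38 in HAMSB and 7.40, 7.91 and 8.15 in LAMS. The fall of 0.66 ± 0.13 (adjusted p = 0.00474) held without each array and with the block (-0.43, adjusted p = 0.0180). Zfp322a fell by 0.71 ± 0.14 (adjusted p = 0.00474) and Zfp24 by 0.51 ± 0.12 (adjusted p = 0.0123), both also past 0.05 with the block (0.0343 and 0.0298). Of 25 Mediator subunits 2 fell (8%, against 4.59% over all genes) and none rose, while with the block 1 fell and 2 rose. Med14, a backbone subunit, measured 3.40, 4.54 and 5.69 in HAMSB and 5.57, 5.75 and 6.21 in LAMS, a fall of 1.09 ± 0.28 (adjusted p = 0.0191; 0.0157 with the block). Most HAMSB values of Med14 lay at or below the floor of 4.75. Med24 fell by 0.34 ± 0.10 (adjusted p = 0.0333), at 0.436 with the block.

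**Figure D4:**
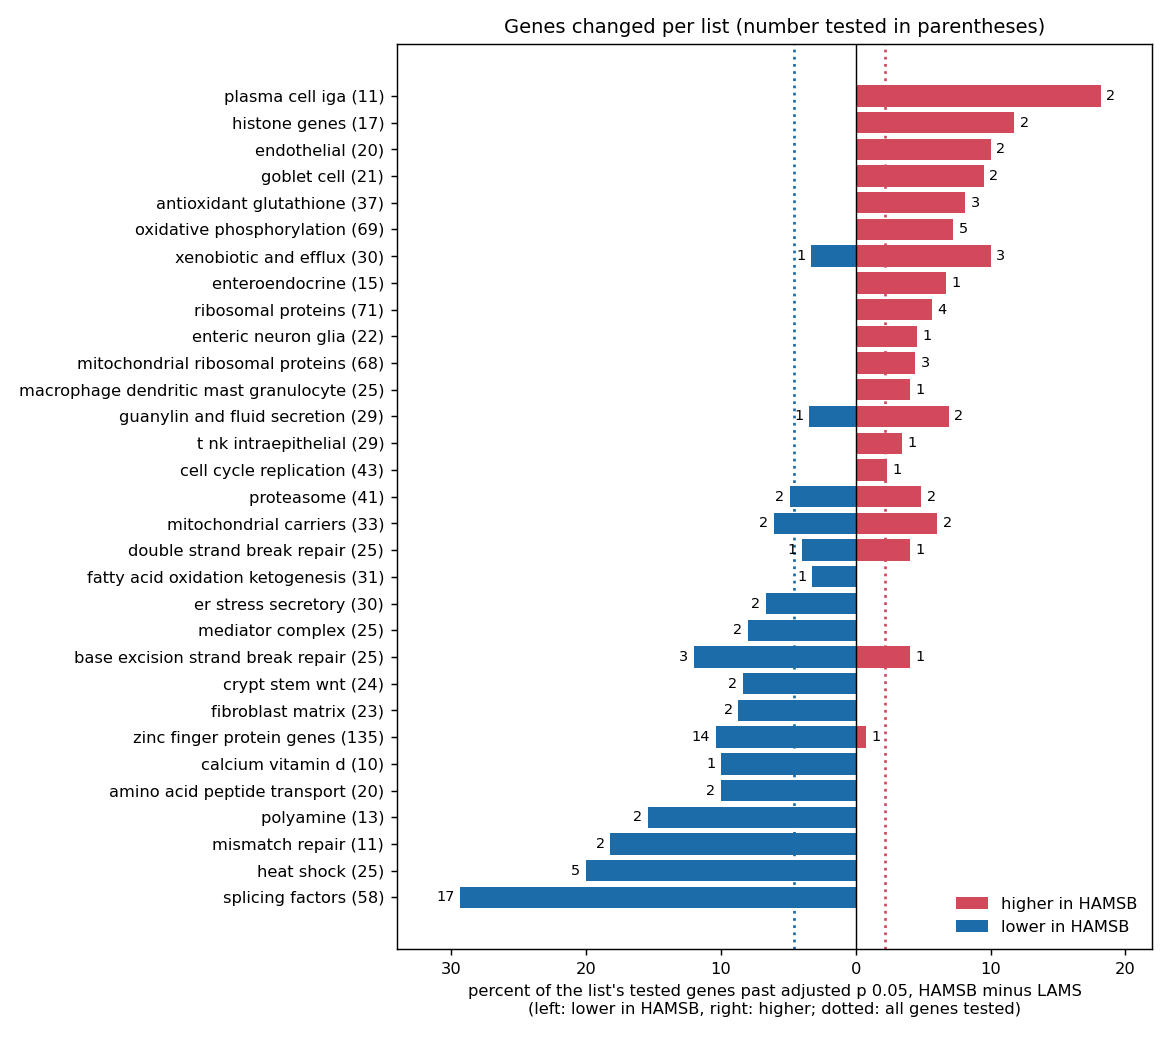
Percent of the tested genes of each list with a changed gene that passed an adjusted p of 0.05 in HAMSB minus LAMS, to the right for higher and to the left for lower, with counts at the bars and the number tested in parentheses. Dotted lines mark the shares over all genes, 2.19% higher and 4.59% lower, and splicing factors reach 29.3% lower.

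Fbxl5, Magt1, Vps35, Snx6, Atp13a3 and Golph3l belonged to the 49 genes whose HAMSB arrays all lay below LAMS. Fbxl5, the iron-sensing subunit of a ubiquitin ligase, measured 6.47, 7.16 and 7.84 in HAMSB and 8.00, 8.12 and 8.31 in LAMS. Its fall of 0.84 ± 0.15 (adjusted p = 0.00474) stood without each array, with the block (-0.95, adjusted p = 0.000968) and within the shared style (-1.18, adjusted p = 0.0184). HAMSB arrays of the shared style ran from 6.47 to 7.16, and the number-first HAMSB arrays from 7.63 to 7.84. Magt1, a magnesium-linked subunit of the glycosylation machinery, measured 7.83, 8.02 and 8.70 in HAMSB and 8.91, 9.04 and 9.11 in LAMS. It fell by 0.78 ± 0.14 (adjusted p = 0.00474), with the block at 0.00706 and within the shared style at 0.0310. Without a block neither Fbxl5 nor Magt1 differed from HAMS past the threshold (adjusted p = 0.560 and 0.208). With the name-style block both lay below HAMS, at -0.38 (limma, adjusted p = 0.0360) and -0.42 (adjusted p = 0.0255). Vps35 (-0.72 ± 0.17, adjusted p = 0.0123) and Snx6 (-0.60 ± 0.14, adjusted p = 0.0130), both of endosomal retrieval, lay below LAMS on all 9 HAMSB arrays. Atp13a3 (-0.65 ± 0.14) and the Golgi protein gene Golph3l (-0.65 ± 0.19) separated as fully. With the block Snx6 and Atp13a3 passed (0.0293 and 0.0210), while Vps35 and Golph3l did not (0.0692 and 0.247). Trpm7, a channel-kinase for magnesium and calcium, fell by 0.75 ± 0.17 (adjusted p = 0.0104; 0.00878 with the block). Vsig1 (-0.97 ± 0.21), the kinase gene Yes1 (-0.94 ± 0.26) and Naip6 (-0.79 ± 0.17) were among the 15 largest falls, at 0.0578, 0.123 and 0.0537 with the block.

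The rises included components of mitochondria and ribosomes in small numbers. Of 69 oxidative phosphorylation subunits 5 rose (7.25%, against 2.19% over all genes) and none fell. A positive difference was seen in 61 subunits, and the median was 0.31. With the block 3 rose and the median was 0.12, and within the shared style the median was 0.006. Averaged over the list, the level of an array ran from 9.098 to 9.505 in HAMSB (median 9.375) and from 8.575 to 9.439 in LAMS (median 8.97). Atp5mk, a small ATP synthase subunit, measured 7.53, 8.70 and 9.25 in HAMSB and 7.20, 7.64 and 7.93 in LAMS. It rose by 0.77 ± 0.24 (adjusted p = 0.0422; 0.0127 with the block) and by 0.81 over HAMS (adjusted p = 0.0152). Atp5me (0.54 ± 0.17), Atp5pd (0.49 ± 0.15) and Ndufb10 (0.51 ± 0.15) rose without passing under the block (adjusted p = 0.181, 0.409 and 0.276). Ndufv3 rose by 0.38 ± 0.12 and passed under the block (0.0260), while a second probe set was at 0.05. Each of the 5 calls was lost in 9 of 16 runs, with adjusted p up to 0.135 for Atp5me without LAMS replicate 4. Firmer were Cox17, the copper chaperone of cytochrome oxidase (0.70 ± 0.16, adjusted p = 0.0104; 0.0158 with the block), and Micos10 of the cristae junction (0.64 ± 0.14, adjusted p = 0.0104; 0.0196 with the block). No left-out array ended the calls of Cox17 or Micos10, and both exceeded HAMS (0.51, adjusted p = 0.0183 and 0.58, adjusted p = 0.00545). With the lymphoid level as a covariate their differences from HAMS were 0.37 and 0.40 and did not pass (limma, adjusted p = 0.1605 and 0.0592).

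Ribosomal protein genes rose in 4 of 71 cases (5.63%, against 2.19% over all genes) and fell in none, at a median of 0.18. Rpl38 measured 10.1, 11.3 and 11.7 in HAMSB and 10.2, 10.4 and 10.8 in LAMS, with 6 HAMSB arrays above every LAMS array and 1 below. Its rise was 0.61 ± 0.16 (adjusted p = 0.0174), 0.92 with the block (adjusted p = 0.000968) and 1.03 within the shared style (adjusted p = 0.0184). The call of Rpl38 was lost in 2 runs (up to 0.0526, without HAMSB replicate 5). Rpl36a (0.45 ± 0.13), Rpl35 (0.38 ± 0.12) and Rps29 (0.34 ± 0.10) rose without passing under the block (adjusted p = 0.112, 0.320 and 0.0916). With the block the list held 2 rises and 2 falls at a median of 0.03. Of 68 mitochondrial ribosomal proteins 3 rose (4.41%). These were Mrps21 (0.53 ± 0.13, adjusted p = 0.0150), Mrps23 (0.37 ± 0.10) and Mrpl2 (0.37 ± 0.11), and Mrps21 alone among them passed with the block (0.0216). Ribosomal proteins have many near-identical pseudogene copies, so these values are uncertain.

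Histone genes rose in 2 of 17 cases (11.8%, against 2.19% over all genes), at a median of 0.31. H4c14 measured 7.97, 8.95 and 9.35 in HAMSB and 7.11, 7.91 and 8.71 in LAMS, a rise of 0.80 ± 0.24 (adjusted p = 0.0374; 0.183 with the block). H2ax, the histone variant that marks DNA breaks, rose by 0.41 ± 0.13 (adjusted p = 0.0403, and 0.0487 with the block). The calls of H4c14 and H2ax were each lost in 9 of 16 runs, up to 0.119 and 0.108 without LAMS replicate 4. With the block 1 histone gene rose and 1 fell, at a median of 0.23. Antioxidant genes rose in 3 of 37 cases (8.11%). These were Sod1, cytosolic superoxide dismutase (0.52 ± 0.15, adjusted p = 0.0353), Gpx4, which reduces lipid peroxides (0.49 ± 0.15, adjusted p = 0.0407), and Prdx5, a peroxiredoxin (0.40 ± 0.12, adjusted p = 0.0406). None of the 3 passed with the block (0.115, 0.450 and 0.153), and each was lost in 9 or 10 of 16 runs, up to 0.140 without LAMS replicate 4 (Gpx4).

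Direction followed genomic length, taken from the RefSeq GRCr8 annotation. The median length was 8.01 kb for the genes that were higher and 39.3 kb for those that were lower, against 21.1 kb over all tested genes. Split by length into 5 bins of 2185 genes, the shortest bin held 106 rises and 18 falls, and the longest held 14 rises and 137 falls. The median difference ran through 0.13, 0.06, -0.01, -0.09 and -0.10 from the shortest to the longest bin. With the name-style block it ran through 0.06, 0.04, 0.002, -0.02 and 0.006. The median length was 3.25 kb for the ribosomal proteins, 7.18 kb for the oxidative phosphorylation subunits and 0.745 kb for the histone genes. It was 18.6 kb for the splicing factors and 18.4 kb for the zinc finger protein genes, both under the median of all tested genes. The part of length in the lists was not tested.

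**Figure D5:**
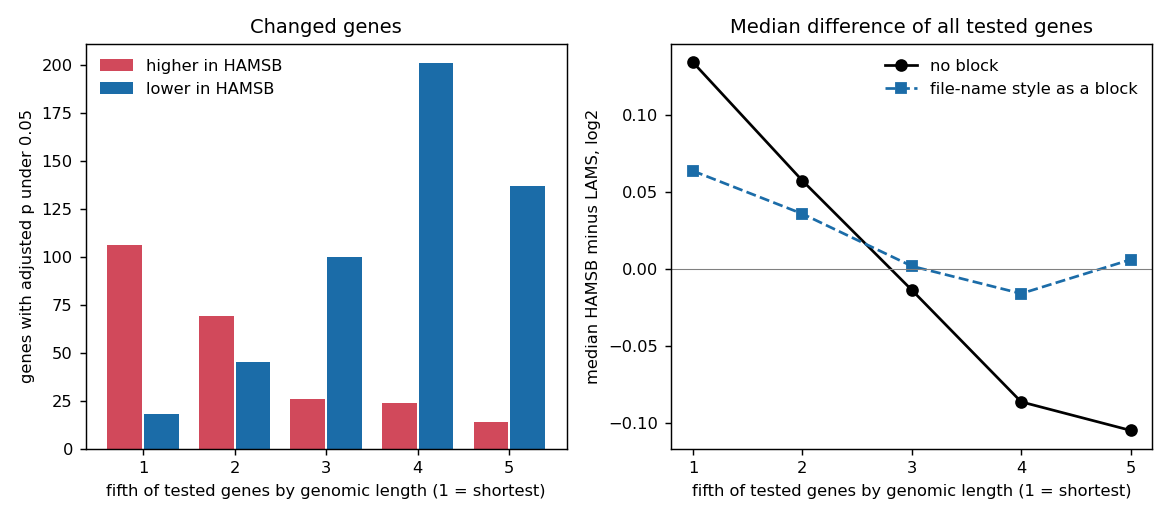
Left, numbers of genes higher or lower in HAMSB than in LAMS (adjusted p under 0.05) in 5 bins of genomic length from the shortest to the longest. Right, the median difference (log2) of all tested genes in each bin without a block and with file-name style as a block; the unblocked medians run from 0.13 to -0.10, and the blocked ones from 0.06 to 0.006.

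Jchain, the joining chain that links secreted IgA and IgM, rose among the plasma cell genes. It measured 9.08, 9.23 and 9.94 in HAMSB and 7.28, 8.35 and 9.29 in LAMS, with 4 HAMSB arrays above every LAMS array. The difference was 1.01 ± 0.26 (adjusted p = 0.0179; 1.05 with the block, adjusted p = 0.0487), and 3 left-out arrays ended the call (up to 0.0694, without LAMS replicate 4). HAMS spanned 8.46 to 9.80, and HAMSB exceeded it by 0.35 without passing (adjusted p = 0.318). Fkbp11, a folding factor of secretory cells, rose by 0.32 ± 0.10 (adjusted p = 0.0403; 0.151 with the block). Jchain and Fkbp11 are 18.2% of the 11 plasma cell genes, where 2.19% of all genes rose. The other 9 did not pass, among them Pigr, the epithelial receptor that exports IgA, at -0.17 (95% interval -0.45 to 0.10). In whole tissue, more cells of a type and more RNA per cell cannot be told apart. Of 29 T and NK cell genes Cd7 alone rose, by 0.72 ± 0.16 (adjusted p = 0.0106; 0.0800 with the block), and the list median was -0.04. Cd7, a surface protein of T cells and intraepithelial lymphocytes, measured 5.80, 6.19 and 6.80 in HAMSB and 5.20, 5.51 and 5.93 in LAMS. Of 19 B cell genes and 12 MHC class II genes none passed, where 6.78% of all genes did. All 741 calls, those of Jchain and Cd7 included, stood when the lymphoid level entered the fit. That level differed by only -0.18 between the diets, so the covariate could change the differences little (median 0.983 of the size). The plasma cell list followed it at r = 0.39 within diets, so plasma cell content was not tested.

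Epithelial and stromal markers moved in single genes. Of 21 goblet cell genes 2 rose (9.52%, against 2.19% over all genes) and none fell. These were Muc1, a membrane mucin (0.58 ± 0.18, adjusted p = 0.0413), and Klk1, a kallikrein (0.42 ± 0.13, adjusted p = 0.0380), with 7 of 9 HAMSB arrays above LAMS for each. They were at 0.107 and 0.0869 with the block and were lost in 11 and 9 runs. Chga, the granin of enteroendocrine cells, measured 6.35, 6.61 and 6.87 in HAMSB and 5.87, 6.29 and 6.42 in LAMS. It rose by 0.41 ± 0.10 (adjusted p = 0.0137; 0.0177 with the block), with 8 HAMSB arrays above LAMS, and lay 0.50 above HAMS (adjusted p = 0.00130). The other 14 of 15 enteroendocrine genes did not pass. Endothelial genes rose in 2 of 20 cases (10%), the fenestral protein gene Plvap (0.37 ± 0.10, adjusted p = 0.0199) and Eng (0.28 ± 0.09, adjusted p = 0.0452). Eng passed with the block (0.0211) while Plvap did not (0.173). With 1 array left out, Eng was lost in 10 of 16 runs (up to 0.129, without LAMS replicate 2). Plvap was lost in 4 (up to 0.0577, without LAMS replicate 4). In the neuron and glia list 20 of 22 genes had a positive difference, the median was 0.17, and Cspg5 rose (0.44 ± 0.12, adjusted p = 0.0290; 0.0609 with the block). Of 25 macrophage, mast cell and granulocyte genes Gata2 alone rose (0.33 ± 0.10, adjusted p = 0.0359; 0.0508 with the block).

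A pair of collagen genes was lower. Col3a1, a fibrillar collagen, measured 10.1, 10.2 and 10.4 in HAMSB and 10.4, 10.6 and 11.0 in LAMS, and Col5a2 measured 7.46, 7.71 and 7.87 in HAMSB and 7.89, 8.06 and 8.40 in LAMS. For both, every HAMSB array lay below every LAMS array. The falls were 0.45 ± 0.14 (adjusted p = 0.0392) and 0.43 ± 0.13 (adjusted p = 0.0437), at 0.101 and 0.260 with the block, and each was lost in 10 of 16 runs. Of 23 fibroblast and matrix genes these 2 fell (8.70%, against 4.59% over all genes), none rose, and the median was -0.19. In the crypt and Wnt list Slc12a2 and Ctnnb1 fell (8.33%) and none of 24 rose. Ctnnb1, beta-catenin, fell by 0.30 ± 0.10 (adjusted p = 0.0491; 0.0249 with the block and 0.0299 within the shared style), though 12 of 16 runs ended its call (up to 0.113, without LAMS replicate 5). None of 25 colonocyte differentiation genes and none of 20 smooth muscle genes passed, where 6.78% of all genes did.

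Single DNA repair genes passed in either direction. Of 25 base excision and strand break repair genes 1 rose (4%) and 3 fell (12%), and of 11 mismatch repair genes 2 fell (18.2%). Of 25 double-strand break repair genes 1 rose (H2ax) and 1 fell (4% each), against 2.19% higher and 4.59% lower over all genes. With the block 1 rose and 1 fell in the first list, none passed in the second, and 1 rose in the third. Tdg, the glycosylase that removes oxidised methylcytosine as well as thymine mispaired with guanine, measured 6.87, 7.35 and 7.54 in HAMSB and 7.74, 7.85 and 8.03 in LAMS, without overlap. Tdg fell by 0.57 ± 0.11 (adjusted p = 0.00474). Its highest adjusted p without 1 array was 0.0206 and the blocked value was -0.49 (adjusted p = 0.0157), while HAMSB was also 0.36 below HAMS (-0.36, adjusted p = 0.0202). Ung, which removes uracil, measured 7.29, 7.72 and 8.21 in HAMSB and 7.19, 7.32 and 7.69 in LAMS. It rose by 0.45 ± 0.11 (adjusted p = 0.0141), stood at 0.56 with the block (adjusted p = 0.0107), was 0.43 over HAMS (adjusted p = 0.00607), and no left-out array ended its call (up to 0.0467). Parg, of strand break repair (-0.45 ± 0.11), and Top1, a topoisomerase put on the same list (-0.46 ± 0.13), had adjusted p of 0.0627 and 0.128 with the block. Msh3, a mismatch recognition subunit, measured 5.62, 5.81 and 6.21 in HAMSB and 6.16, 6.38 and 6.49 in LAMS, a fall of 0.51 ± 0.12 (adjusted p = 0.0134; 0.0803 with the block). Mlh3 fell by 0.55 ± 0.14 (adjusted p = 0.0199; 0.0896 with the block). Lig4, the ligase of end joining, fell by 0.72 ± 0.21 (adjusted p = 0.0308; 0.181 with the block). E2f1, a driver of replication genes, rose by 0.45 ± 0.13 (adjusted p = 0.0283; 0.147 with the block) as the only 1 of 43 cell cycle genes to pass.

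No tested gene that carries or senses butyrate passed. Of 11 tested genes for short-chain fatty acid transport and sensing none passed, and the median was 0.005. Over all genes 6.78% passed, so the lack of a call in a list this short lies near that share. The transporter genes Slc16a1 (-0.18, 95% interval -0.47 to 0.12) and Slc5a8 (-0.20, interval -0.61 to 0.20) and the receptor genes Ffar2 (0.09, interval -0.12 to 0.30) and Hcar2 (0.16, interval -0.11 to 0.43) had intervals that span 0. Ffar3, at 0.36 with an interval of 0.06 to 0.65, did not pass after adjustment (adjusted p = 0.111; 0.434 with the block). Of 16 histone deacetylases and sirtuins none passed, again near the share over all genes. Hdac1 was at -0.22 (interval -0.48 to 0.03). Hdac2 was at -0.41 (interval -0.71 to -0.11, adjusted p = 0.0780, and 0.726 with the block). Fatty acid oxidation held 1 fall in 31 genes (3.23%, near the 4.59% over all genes). This was Acad9, which also assembles complex I (-0.41 ± 0.10, adjusted p = 0.0168, and 0.0651 with the block). Mitochondrial carriers held 2 falls, Slc25a30 (-0.62 ± 0.17) and Slc25a51, the NAD carrier (-0.36 ± 0.10), and 2 rises, Slc25a1, the citrate carrier (0.32 ± 0.09), and Slc25a34 (0.39 ± 0.12), among 33 genes (6.06% each way). With the block Slc25a51 and Slc25a1 passed (0.0260 and 0.0293), and Slc25a30 and Slc25a34 did not (0.281 and 0.125). A second probe set of Slc25a1 was at 0.04. The proteasome list held 2 rises, Psmb2 (0.38 ± 0.11) and Psma6 (0.34 ± 0.10), and 2 falls, Psmd2 (-0.34 ± 0.10) and the activator Psme4 (-0.59 ± 0.15), among 41 (4.88% each way, a share of falls close to that over all genes). None of these 4 passed with the block (adjusted p = 0.0551 to 0.302). None of the tested genes for cholesterol synthesis (24), claudins and tight junctions (24), interferon response (27) or the circadian clock (16) passed, where 6.78% of all genes did. The sterol regulator Insig1 (-0.51, adjusted p = 0.0507; 0.233 with the block) and the desaturase Scd (-0.96, adjusted p = 0.0639; 0.118 with the block) came near the threshold. The clock gene Clock was at -0.48 (adjusted p = 0.0565) and at -0.13 with the block (0.670). Per3, of the period family of clock repressors, was at 0.37 (adjusted p = 0.0662), passed with the block (0.53, adjusted p = 0.0260) and was 0.64 above HAMS (adjusted p = 0.00130).

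The resistin-like genes had wide ranges and did not pass. Retnlb, a goblet cell protein that acts on bacteria and worms, measured 7.78, 9.08 and 11.1 in HAMSB and 6.02, 7.65 and 8.83 in LAMS, with 5 HAMSB arrays above every LAMS array. The difference was 1.84 ± 0.60 (adjusted p = 0.0521), 0.96 with the block (adjusted p = 0.465) and 1.81 when the lymphoid level entered the fit (adjusted p = 0.0324). Retnla stood at 1.81 ± 0.59 (adjusted p = 0.0526; 0.384 with the block). Mptx1, a mucosal pentraxin, was at 0.95 ± 0.41 (adjusted p = 0.136; 0.380 with the block). Against HAMS, where Retnlb measured 4.52, 6.01 and 8.34, HAMSB was higher by 3.06 ± 0.58 (adjusted p = 0.00130).

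The plain high-amylose starch gives a second reference for the same HAMSB arrays. In HAMSB minus HAMS 1821 of 10934 genes passed (16.7%), 1550 higher and 271 lower in HAMSB. The lymphoid level had a median of 6.08 on HAMSB arrays and 8.12 on HAMS arrays, and stood above 7 on 2 of 9 and 6 of 8. With that level as a covariate 313 genes passed. The HAMSB arrays enter both comparisons, so the values are given side by side. Of the 741 genes 159 were past the threshold against HAMS too, 114 higher than in both diets and 45 lower, and none had opposite directions. With the covariate, 54 of the 159 passed against HAMS. Guca2b was among them (adjusted p = 0.00483), as were Cyp2d5 (0.00903), Chga (0.0107), Plvap (0.00903) and Ift43 of cilia (0.0101), whereas Slc6a14 (0.0912), Tdg (0.0935) and Hspa8 (0.119) were not. Their differences from HAMS were -0.76, -0.33 and -0.28 with the covariate, beside -0.78, -0.36 and -0.33 without it. Atp5mk (adjusted p = 0.168), Hsph1 (0.0857), Hsp90ab1 (0.0519), Ung (0.0656), Cox17 and Micos10 also passed against HAMS without the covariate and not with it. Gchfr, a feedback regulator of tetrahydrobiopterin synthesis, measured 7.60, 7.98 and 8.57 in HAMSB, against 6.38, 6.96 and 7.46 in HAMS and 6.56, 7.30 and 8.11 in LAMS. It exceeded LAMS by 0.70 ± 0.20 (adjusted p = 0.0277; 0.246 with the block) and HAMS by 1.03 (adjusted p = 0.00123), with no overlap between HAMSB and HAMS.

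A smaller set of genes held under every array left out. Of the 741, 130 stayed past the threshold in all 16 runs, 25 higher and 105 lower, and 94 of these also passed with the name-style block (17 higher and 77 lower). With both name style and animal number range as blocks, 116 genes passed here, with the name-style block and without a block, 27 of them higher. Of the 95 changed genes described for these diets, 28 were kept in every run and 40 passed with the block. Sox12, a transcription factor gene, measured 7.13, 7.35 and 7.92 in HAMSB and 6.80, 6.89 and 7.05 in LAMS, without overlap (0.49 ± 0.11, adjusted p = 0.0101; 0.0276 with the block). Kcnip3, a calcium sensor, measured 5.53, 5.67 and 6.30 in HAMSB and 5.14, 5.33 and 5.52 in LAMS, without overlap (0.46 ± 0.10, adjusted p = 0.0104; 0.0113 with the block). Pfdn6, a prefoldin subunit, and Ift43 separated as well, at 0.48 ± 0.13 and 0.38 ± 0.10, but stood at 0.130 and 0.0648 with the block. Passing without a block, with it and within the shared style were 22 genes, 7 higher and 15 lower, among them Hspa8, Fbxl5, Magt1, Hnrnpc, Odc1, Dnaja2, Ctnnb1 and Rpl38. Not all of these held under every array left out. Ctnnb1 lost its call in 12 of 16 runs, Dnaja2 in 3, and Odc1 and Rpl38 in 2 each.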

How the data were processed

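The deposited table holds log2 values for 29214 probe sets on 43 arrays, and per the submitters' processing notes the deposited values come from RMA, with no version given. RMA forces one distribution on the probe intensities of every array after background correction, so differences in total RNA are removed. The summarised probe-set values still differ in spread, with interquartile ranges from 2.68 to 3.40 over the 43 arrays. Values ran from 1.31 to 14.05. Arrays carry no read depth, and the number of animals limits the precision. Of the probe sets, 15310 had 1 symbol, 323 several and 13581 none; symbols were updated through gene IDs to RefSeq (15279 matched). The probe set with the highest mean stood for each of 14506 symbols, and 10934 were kept whose median reached 4.75, the 25th percentile.

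A mean per diet was fitted over all arrays with limma 3.58.1 in R 4.3.3 (lmFit, eBayes), two-sided, with Benjamini-Hochberg adjustment across these genes and a threshold of 0.05. Array measures were compared by exact permutation. On simulated data for HAMSB minus LAMS, with shifts of 1 in either direction and independent noise, the fit recovered 194 of 200 changed genes. The observed shifts were mostly smaller (median size 0.45 among the changed genes), so recovery at their size was not tested. Intervals are 95%. Tables and figures were made with Python 3.11.15, pandas 2.3.3, scipy 1.17.1 and matplotlib 3.10.9.

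The comparison, the 49 gene lists (1390 of 1679 members tested, 7 members matched through older names) and the tests were chosen with earlier results of these data known. The rule for named genes took the 15 largest rises and 15 largest falls, up to 10 genes a direction whose groups did not overlap, per list up to 4 members with the smallest p and all that passed where 6 or fewer did, 15 fixed genes, and the 5 genes most correlated with Guca2b and with Slc6a14. It took 244 genes, and the text names a choice of them. Alternatives were filters, all probe sets, priors, weights, centring, blocks, covariates, the compared diets alone and each array left out. Replicate numbers do not pair the samples: same-numbered HAMSB and LAMS deviations correlated at -0.43 to 0.26. Scanner files were not used here.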

Additional observations from a re-analysis of the deposited data

Results flagged for a closer look

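Single arrays stood apart from the rest of their diet in 10 of 236 checks (116 genes and 2 array measures in both diets), where chance flags about 1 in 20. On LAMS replicate 5, Guca2b was high at 9.05 (next 8.15), Ung was high at 7.69 (next 7.39) and Msh3 was low at 6.16 (next 6.37). On LAMS replicate 1, Amd1 was low at 8.06 (next 8.46) and Hdac2 was low at 7.73 (next 8.14), and on LAMS replicate 4 Gucy2c was low at 9.47 (next 9.92). On HAMSB replicate 9, Cspg5 was low at 4.43 (next 4.92) and Eng was low at 8.21 (next 8.60). On HAMSB replicate 8, Nherf1 was low at 9.83 (next 10.19). The interquartile range of HAMSB replicate 5 was low at 2.95 (next 3.07).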

How the results depend on the processing

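HAMSB minus LAMS counts (changed, higher, lower) beside 741, 239 and 502 were 1296, 502 and 794 with all probe sets, 3724, 1703 and 2021 with array weights, 327, 150 and 177 with the name-style block, 159, 48 and 111 with both blocks, 38, 14 and 24 within the shared style, and 1496, 508 and 988 with the lymphoid level as a covariate. Those higher were 74 after centring, 145 with the number-range block, 384 with the replicate block (826 changed; numbers do not pair the samples) and 386 with name style and lymphoid level. One array left out gave 158 to 1384 changed, 38 to 496 higher and 120 to 895 lower. HAMSB minus HAMS changed 3791 with array weights, 3334 with the name-style block, 313 with the lymphoid covariate, 540 with both, and 923 to 2868 without 1 array. The lymphoid difference of -0.18 was 0.33 within the shared style and -0.37 to 0.12 without 1 array (0.04 and 0.12 without LAMS replicates 2 and 4); the spread difference was -0.11 to -0.063. Signs turned for uncalled genes: Gucy2c (0.031), Cftr (0.037) and Slc5a8 (0.055) with the name-style block, Cftr with both blocks (0.0044), Slc5a8 (0.045) and Hcar2 (-0.0498) within the shared style, and Ffar2 with array weights (-0.0197). The called gene Rbm39 turned at its second probe set (0.41). HAMSB minus HAMS lower, 271, ran from 24 (lymphoid covariate) to 1216 (name-style block), and higher, 1550, from 289 (lymphoid covariate) to 2732 (array weights). The other counts of changed genes stayed within 1.5 times. The causes were not tested.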

Other observations

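Genes of iron handling were put in a list after values of some members had been seen, so the counts of that list are a description and support nothing. Of 23 tested genes 2 rose and 3 fell, where 2.19% and 4.59% of all genes did, and the median was 0.01. Ncoa4, the receptor that delivers ferritin for breakdown, measured 8.12, 8.50 and 8.81 (lowest, median, highest) in HAMSB and 8.87, 9.12 and 9.26 in LAMS, without overlap. Its difference was -0.57 ± 0.10 (limma, adjusted p = 0.00474), and it passed without each array and with the name-style block (-0.39, adjusted p = 0.0122). Fth1, the ferritin heavy chain, measured 12.7, 12.9 and 13.1 in HAMSB and 12.4, 12.6 and 12.7 in LAMS. All HAMSB arrays lay above LAMS, but the difference of 0.25 ± 0.08 did not pass (adjusted p = 0.0565), and it was 0.11 with the block (adjusted p = 0.551). Slc40a1, the iron exporter ferroportin, measured 9.02, 9.25 and 9.52 in HAMSB and 9.60, 9.70 and 9.97 in LAMS, also without overlap and without passing (-0.51 ± 0.17, adjusted p = 0.0555; -0.48 with the block, adjusted p = 0.160). Cybrd1, a ferric reductase of the brush border, rose by 0.35 ± 0.10 (adjusted p = 0.0290), and Iscu, the scaffold of iron-sulphur cluster assembly, rose by 0.39 ± 0.12 (adjusted p = 0.0380). Neither passed with the block (0.144 and 0.121).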
